A study of Mus musculus with 8 samples.

Results

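The genes described here are 33 mouse genes of glucose breakdown and of the hypoxia-inducible factor (HIF) pathway, measured in whole kidneys of mice that lost the phosphate exporter gene Xpr1 in the nephron. They were taken by symbol from a list, a rule that uses no measured value, and all 33 were found among the 46517 Ensembl genes counted in each library. The list itself was chosen with earlier results of these data known. The set holds the HIF alpha subunits and prolyl hydroxylases (5 genes), glucose entry and the upper steps of glycolysis (9 genes), the lower steps to lactate (7 genes), regulators of flux (4 genes) and other HIF targets (8 genes). The tested mice (cKO, n = 4, named KO16, KO18, KO19 and KO20) were Xpr1 lox/lox with the transgenes Pax8-rtTA and LC1, so that doxycycline switched on Cre recombinase in Pax8-expressing tubule cells and removed exon 2 of Xpr1. The Control mice (n = 4, named C10, C11, C13 and C14) were Xpr1 lox/lox littermates. Both groups drank doxycycline at 2 mg/ml for 2 weeks, beginning at 8 weeks of age. Control mice are not described as carrying either transgene, so rtTA and Cre cannot be told apart from the loss of Xpr1. Cells outside the Pax8 lineage kept Xpr1 and were part of each sample.

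Glycolysis splits glucose into pyruvate in the cytosol, and lactate dehydrogenase can turn pyruvate into lactate when it is not burnt in mitochondria. HIF is a dimeric transcription factor whose alpha subunit is hydroxylated by oxygen-dependent prolyl hydroxylases and then destroyed, so that its targets, among them many glycolytic enzymes, rise when oxygen falls. In the kidney the proximal tubule burns mainly fatty acids and makes glucose, whereas the distal segments and the medulla rely more on glycolysis, and the erythropoietin-making cells lie in the interstitium.

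Reads assigned to genes numbered 20366113 (KO16) to 26155030 (C13) per library. Xpr1 averaged 16.6 ± 9.43 CPM (counts scaled to library size) in cKO kidneys and 104 ± 19.02 CPM in Control kidneys (SD, n = 4 each), and the groups did not overlap. KO16, KO20 and C11 stood apart from the other 5 libraries on the first principal component, which held 54.2% of the variance, with scores of 112 (KO16), 80.8 (KO20) and -86.1 (C11). Libraries also differed in how level followed transcript length. Genes in the shortest sixth deviated from the Control mean by 0.95 (KO16), 0.49 (KO20) and -0.36 (C11) log2 units on average. The same average was -0.23 in KO18, -0.14 in KO19, 0.24 in C10, 0.024 in C13 and 0.095 in C14, so C11 was not far from KO18. Fold changes that rest on KO16, KO20 and C11 are also given without these 3 libraries. In that fit length dependence still differs between the groups and cannot be told apart from genotype. Of all 15881 genes tested in it, 29.5% passed as higher and 28.2% as lower in cKO kidneys. Every call given from it is to be read beside these shares. No label gives a cause for these differences.

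Of the 33 genes, 31 passed the filter on low counts and 4 passed the test at an adjusted p under 0.05. Vegfa, which encodes the main endothelial growth factor of the kidney, was lower in cKO kidneys. Hk2 (hexokinase 2), Pkm (pyruvate kinase of muscle and most other tissues) and Ankrd37 (an ankyrin-repeat protein induced by HIF) were higher. The other 27 did not pass, among them every HIF alpha subunit and prolyl hydroxylase tested. The 4 genes are 12.9% of those tested, near the 14.1% of all 15382 genes that passed, of which 7.5% were higher and 6.61% lower in cKO kidneys. The median log2 fold change of cKO over Control was 0.04 over the 31 genes and 0.01 over all genes tested, with 17 of the 31 above 0 and 14 below. The 4 cKO libraries lay wholly above the 4 Control libraries for 4 of the 31 genes (Hk2, Pkm, Ankrd37 and Slc2a1) and wholly below them for 2 (Vegfa and Egln1), against 11.2% and 11.6% of all genes tested. These shares lie near those of all genes and are no result about the set. The 4 calls lie close to the threshold, and none of the 4 passed when C10, C13, C14 or KO20 was left out.

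**Figure D1:**
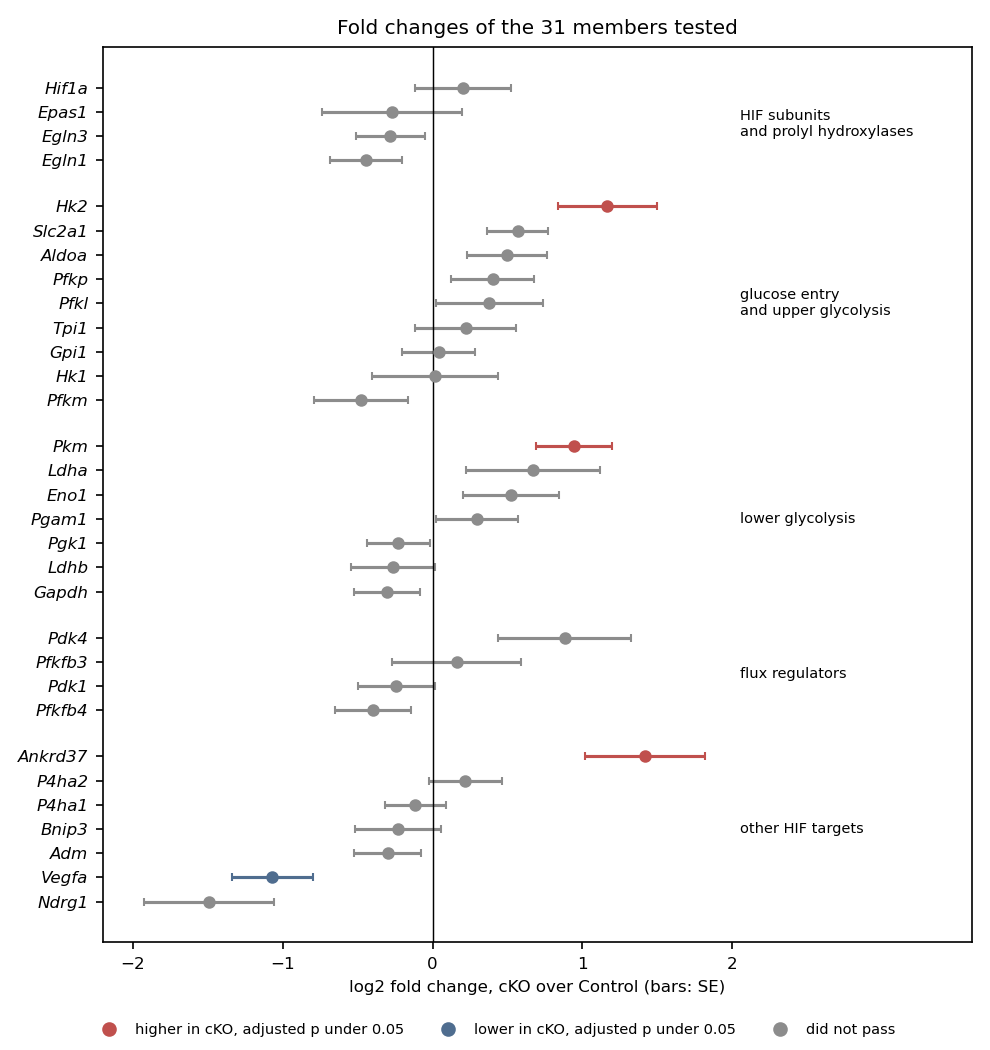
Log2 fold change of cKO over Control for the 31 genes tested, in 5 groups by role, with bars for the standard error (n = 4 mice per group). Red points passed the test as higher in cKO (Hk2, Pkm, Ankrd37), the blue point as lower (Vegfa), and grey points did not pass; Ndrg1 lies farthest below 0 with an adjusted p of 0.0501.

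Vegfa (chr17:46016993-46032369, minus strand, GRCm38) was at 62.6, 149, 126 and 114 CPM in the cKO kidneys KO16, KO18, KO19 and KO20, against 214, 272, 232 and 228 CPM in the Control kidneys C10, C11, C13 and C14. Every cKO value lay below every Control value, with KO16 lowest of all. The fitted log2 fold change was -1.07 (SE 0.27; edgeR quasi-likelihood test, adjusted p = 0.0303), or 2.10 times lower in cKO. The difference shrank to -0.75 when KO16, KO20 and C11 were left out (adjusted p = 0.00037). With all the others kept, leaving out 1 library gave adjusted p-values of 0.0105 (without KO16) and 0.0253 (without KO18), and of 0.0567 to 0.0842 without each of the other 6.

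Ndrg1, a stress-induced gene that hypoxia also raises, was at 1002, 567, 464 and 284 CPM in the cKO kidneys KO16, KO18, KO19 and KO20, against 2269, 863, 1387 and 1997 CPM in the Control kidneys C10, C11, C13 and C14. C11 lay below KO16, so the groups overlapped, although the other 3 Control values were above all cKO values. Its log2 fold change of -1.49 (SE 0.43) is the lowest of the set and just missed the threshold, with an adjusted p of 0.0501 by edgeR. It passed with DESeq2 (adjusted p = 0.0119) and limma-voom (0.0418), without C11 (-1.71, adjusted p = 0.0335) and without KO16 (-1.89, 0.0148). With KO16, KO20 and C11 all left out it was -1.91 (adjusted p = 4.6e-05).

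Ankrd37 (chr8:45996902-46005707, minus strand) was at 5.58, 2.49, 1.97 and 5.10 CPM in the cKO kidneys KO16, KO18, KO19 and KO20, against 1.64, 0.882, 1.43 and 1.68 CPM in the Control kidneys C10, C11, C13 and C14. All cKO values were above all Control values, and KO16 and KO20 were more than 2 CPM above the other cKO mice. The log2 fold change was 1.42 (SE 0.40, adjusted p = 0.0446 by edgeR). It was 0.66 with KO16 and KO20 left out (adjusted p = 0.191) and 0.45 with C11 left out as well (adjusted p = 0.108), so its size rests on these libraries. In annotation, 26.4% of its exonic bases are also exons of Lrp2bp or Ufsp2 on the opposite strand, and the strand setting of the counting is not given in the sources used here. Lrp2bp itself was higher in cKO kidneys (log2 fold change 1.32, adjusted p = 0.0201) and Ufsp2 lower (-0.63, adjusted p = 0.0390), so Ankrd37 is uncertain.

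The other HIF targets tested did not pass. Bnip3, which tags mitochondria for breakdown, differed by -0.23 on the log2 scale (adjusted p = 0.664), with KO18 and KO19 at 94.0 and 101 CPM and C11 at 106 CPM while all other libraries were at 164 CPM or more. With KO16, KO20 and C11 left out, Bnip3 was lower in cKO kidneys (-0.88, adjusted p = 9.0e-05), as were 28.2% of all genes tested. Bnip3 also passed with a transcript-length covariate (-0.46, adjusted p = 0.0185) and with 1 surrogate variable (-0.39, adjusted p = 0.0163). Adm, which encodes the vasodilator adrenomedullin, was at 4.09 to 5.48 CPM in cKO kidneys and 5.10 to 7.77 CPM in Control kidneys (-0.30, adjusted p = 0.441). P4ha1 and P4ha2, the catalytic subunits of collagen prolyl hydroxylase, differed by -0.11 and 0.22 (adjusted p = 0.776 and 0.626). Epo, the hormone gene through which the kidney drives red cell production, was too low to test, with 0, 8, 1 and 6 reads in the cKO kidneys KO16, KO18, KO19 and KO20 and 1, 0, 1 and 3 reads in the Control kidneys C10, C11, C13 and C14. No difference in Epo was detectable at this depth.

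**Figure D2:**
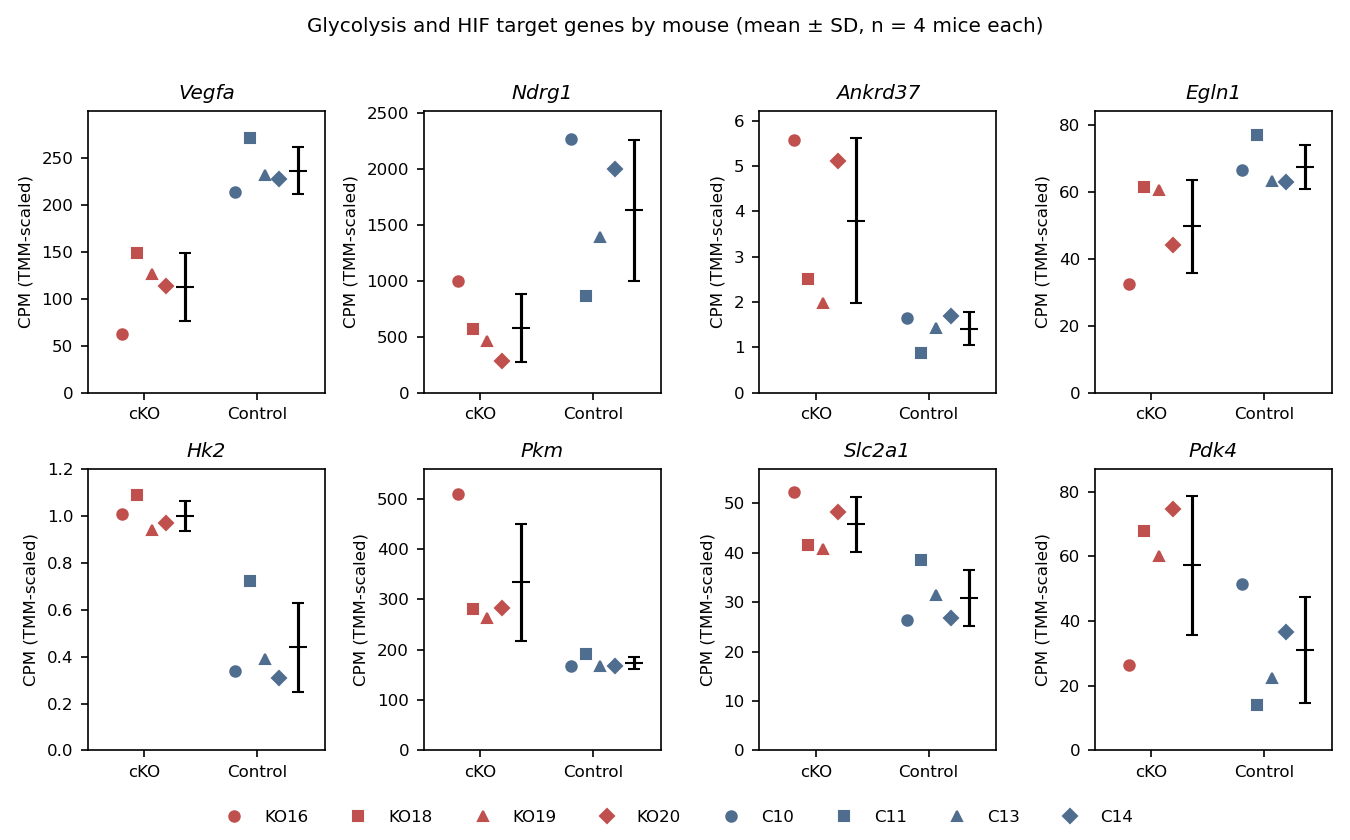
TMM-scaled CPM in each mouse for 8 genes, cKO in red on the left and Control in blue on the right of each panel, with the mean and SD (n = 4 each) in black. The groups do not overlap for Vegfa, Ankrd37, Egln1, Hk2, Pkm and Slc2a1; they overlap for Ndrg1 and Pdk4.

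In the oxygen-sensing machinery itself no transcript passed. Hif1a, the widely expressed alpha subunit, was at 44.7, 135, 113 and 133 CPM in the cKO kidneys KO16, KO18, KO19 and KO20, against 82.7 to 98.9 CPM in Control kidneys. KO16 lay below all Control mice and the other 3 cKO mice above them, and the log2 fold change was 0.20 (SE 0.32, adjusted p = 0.745), or 0.34 (adjusted p = 0.0240) with KO16, KO20 and C11 left out. Epas1, the alpha subunit of interstitial and endothelial cells, ran from 47.6 to 90.7 CPM in cKO kidneys and from 40.4 to 57.8 CPM in the Control kidneys other than C11, which was at 180 CPM. Its log2 fold change was -0.27 (adjusted p = 0.767) with all libraries and 0.70 with KO16, KO20 and C11 left out (adjusted p = 0.0035), so its direction rests on them. Hif3a, an alpha subunit that can dampen the others, had 143 reads in all, of which 68 were in KO18 and 34 in C11, and was not tested.

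Egln1 and Egln3, prolyl hydroxylases that mark the alpha subunits for breakdown, had negative fold changes that did not pass. Egln1 was at 32.6, 61.6, 60.7 and 44.0 CPM in the cKO kidneys KO16, KO18, KO19 and KO20, and at 63.2 to 77.0 CPM in Control kidneys. The groups did not overlap, but KO18 and KO19 came within 3 CPM of the lowest Control mouse (log2 fold change -0.44, SE 0.24, adjusted p = 0.278). Egln3, itself a HIF target, differed by -0.28 on the log2 scale (adjusted p = 0.489).

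Among the genes of glucose entry and the upper steps, 1 of 9 passed, or 11.1% beside the 14.1% of all genes. A positive fold change was seen for 8 of the 9, and for 7760 of the 15382 genes tested, and the median was 0.38. Hk2 (chr6:82725025-82774454, minus strand), the inducible hexokinase that traps glucose as glucose phosphate, was at 1.01, 1.09, 0.939 and 0.970 CPM in the cKO kidneys KO16, KO18, KO19 and KO20, against 0.338, 0.722, 0.391 and 0.310 CPM in the Control kidneys C10, C11, C13 and C14. The cKO mice lay close together, all above the highest Control mouse, C11. The log2 fold change was 1.17 (SE 0.33, adjusted p = 0.0452), or 2.25 times higher in cKO, from 148 reads in all 8 libraries. It passed without C11 (adjusted p = 0.0145), and leaving out any other single library gave 0.0540 to 0.153. Hk1, the constitutive hexokinase, was more abundant, at 8.06 CPM per kilobase against 0.121 for Hk2 over all libraries, and did not pass (log2 fold change 0.02, SE 0.42, adjusted p = 0.986), with C11, KO18 and KO19 at 90.9 to 119 CPM and the other 5 libraries at 39.9 to 59.1 CPM. With KO16, KO20 and C11 left out, Hk1 was higher in cKO kidneys (0.88, adjusted p = 0.00075), as were 29.5% of all genes tested.

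Slc2a1, the basal glucose transporter GLUT1, was at 52.2, 41.5, 40.8 and 48.3 CPM in the cKO kidneys KO16, KO18, KO19 and KO20, against 26.4, 38.5, 31.6 and 26.9 CPM in the Control kidneys C10, C11, C13 and C14. The groups did not overlap, with C11 closest to the cKO mice, but the log2 fold change of 0.57 (SE 0.21) did not pass (adjusted p = 0.106). The phosphofructokinase subunits, which set the committed step, did not pass, with log2 fold changes of 0.40 for Pfkp, 0.38 for Pfkl and -0.48 for Pfkm. With KO16, KO20 and C11 left out, Pfkp (0.86, adjusted p = 0.00039) and Pfkl (0.98, adjusted p = 0.00031) were higher and Pfkm was at 0.089 (adjusted p = 0.520). Aldoa, the main aldolase outside liver and proximal tubule, was at 1394 CPM in KO16 and 690 to 747 CPM in the other cKO mice, against 600 to 695 CPM in Control kidneys (0.50, adjusted p = 0.276). Tpi1, triosephosphate isomerase, was at 1567 CPM in KO16 and 592 to 758 CPM in the other cKO mice, against 634 to 828 CPM in Control kidneys. Its log2 fold change was 0.22 with all libraries (adjusted p = 0.732) and -0.45 with KO16, KO20 and C11 left out (adjusted p = 0.0041). Gpi1, which interconverts the phosphates of glucose and fructose, differed by 0.04 (adjusted p = 0.938).

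Among the 7 genes of the lower steps, Pkm passed, or 14.3% beside the 14.1% of all genes. Pkm (chr9:59656368-59679375, plus strand), which makes pyruvate in the last step of glycolysis, was at 509, 281, 263 and 283 CPM in the cKO kidneys KO16, KO18, KO19 and KO20, against 167, 192, 167 and 168 CPM in the Control kidneys C10, C11, C13 and C14. The 3 cKO mice other than KO16 lay between 263 and 283 CPM, all above the Control mice, and KO16 was far above them. The log2 fold change was 0.94 (SE 0.26, adjusted p = 0.0383), or 1.92 times higher in cKO. Without KO16 it was 0.67 (adjusted p = 0.0127), and with KO16, KO20 and C11 left out 0.66 (adjusted p = 0.00030). It did not pass without C10 (0.107), C11 (0.0603), C13 (0.126), C14 (0.120) or KO20 (0.0696). Counts per gene do not separate the alternatively spliced M1 and M2 forms of the enzyme, and 34.4% of the 50-base words of its longest coding transcript recur in another annotated transcript.

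Ldha, the lactate dehydrogenase subunit of glycolytic tissues, was at 2460, 648, 647 and 925 CPM in the cKO kidneys KO16, KO18, KO19 and KO20, against 681, 556, 832 and 872 CPM in the Control kidneys C10, C11, C13 and C14. KO16 alone lay well above the Control range, and KO18 and KO19 lay inside it. The log2 fold change was 0.67 (SE 0.44, adjusted p = 0.380) with all libraries and -0.33 with KO16, KO20 and C11 left out (adjusted p = 0.0455). Ldhb, the subunit of oxidative tissues, was at 1440 CPM in KO16 and 648 to 826 CPM in the other cKO mice, against 1027 to 1186 CPM in Control kidneys (-0.26, adjusted p = 0.608). Without KO16 alone, Ldhb was lower in cKO kidneys and passed, at -0.57 (adjusted p = 0.0404). Eno1, the enolase of most tissues, was at 472 CPM in KO16 and 176 to 235 CPM in the other cKO mice, against 174 to 204 CPM in Control kidneys (0.52, adjusted p = 0.337).

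Gapdh, Pgk1 and Pgam1, which act between the aldolase and enolase steps, did not pass (log2 fold changes -0.30, -0.23 and 0.30; adjusted p = 0.420, 0.542 and 0.540). Their counts are uncertain, since the counting set aside reads that aligned to several places and each shares sequence with other annotated genes, 196 of them pseudogenes for Gapdh. The share of 50-base words found in another gene's annotated transcript was 82.5% for Gapdh, 72.2% for Eno1, 68.0% for Pgk1 and 41.5% for Pgam1, and 0 for Hk2 and Ankrd37. Gapdh, one of the most abundant transcripts of most tissues, read 8.93 to 13.9 CPM in cKO kidneys and 11.3 to 14.9 CPM in Control kidneys.

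None of the 4 regulators of flux passed. Pdk4, the fasting-induced kinase that shuts pyruvate dehydrogenase, was at 26.3, 67.8, 60.1 and 74.6 CPM in the cKO kidneys KO16, KO18, KO19 and KO20, against 51.3, 13.96, 22.3 and 36.7 CPM in the Control kidneys C10, C11, C13 and C14. KO16 fell within the Control range and the other 3 cKO mice lay above it, and the log2 fold change of 0.88 (SE 0.44) did not pass (adjusted p = 0.241). Pdk1, the kinase of the same complex that HIF induces, was at 21.9 CPM in KO16 and 40.6 to 46.8 CPM in the other cKO mice, against 43.9 to 47.3 CPM in Control kidneys (-0.24, adjusted p = 0.603). Pfkfb3 and Pfkfb4, which make and break the fructose bisphosphate that activates phosphofructokinase, differed by 0.16 and -0.40 (adjusted p = 0.857 and 0.362). With KO16, KO20 and C11 left out, Pfkfb3 was higher in cKO kidneys (0.93, adjusted p = 0.00020), as were 29.5% of all genes tested.

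**Figure D3:**
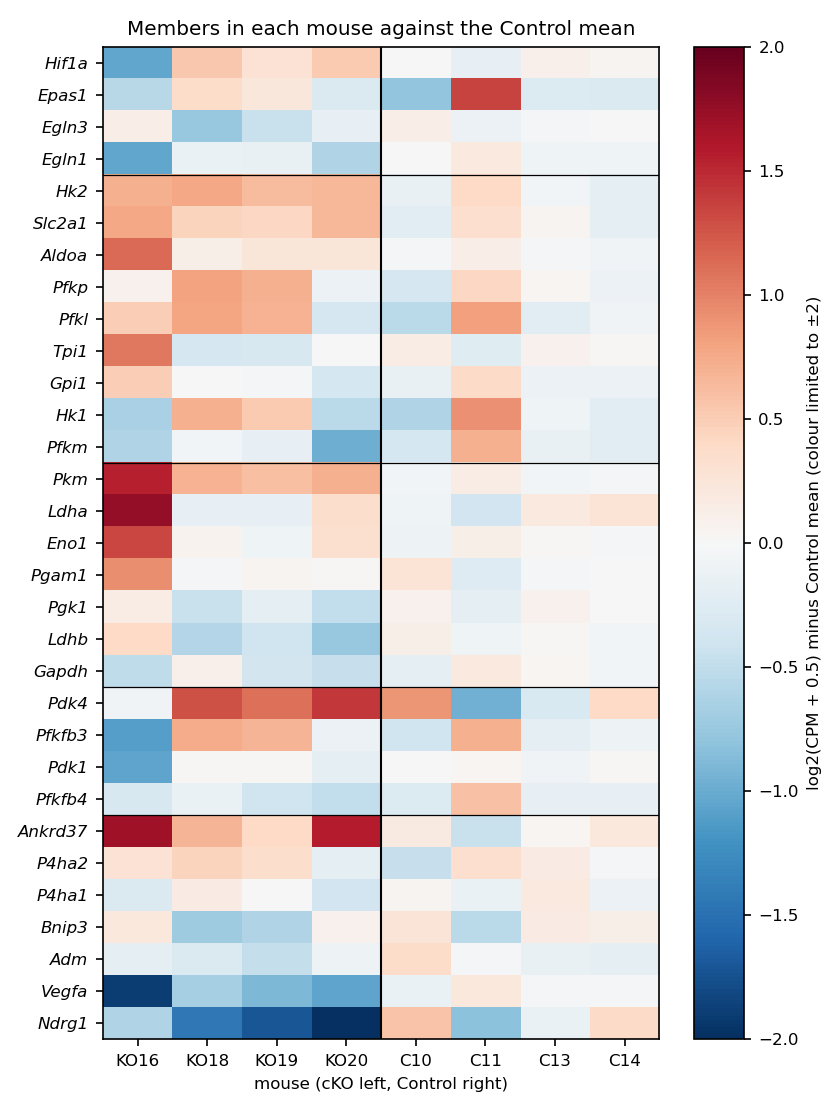
Each gene's log2(CPM + 0.5) in each mouse minus the mean of the 4 Control mice, cKO mice left of the line and Control mice right of it, with genes grouped by role (red above, blue below the Control mean). KO16 differs from KO18 and KO19 in many rows, and C11 stands apart from the other Control mice in Epas1, Hk1, Pfkl, Pfkm and Pfkfb3.

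The cKO mice did not deviate alike. Over the 16 genes of glucose entry and glycolysis, the median deviation from the Control mean was 0.60 log2 units in KO16, with 13 of 16 above it, against 0.08 in KO18, 0.02 in KO19 and -0.05 in KO20. KO16 had 19 of 31 genes more than 0.5 log2 units from the Control mean, KO18 14, KO20 12 and KO19 10, against 9 in C11, 5 in C10 and 0 in C13 and in C14. Ldha, Pkm, Eno1, Aldoa and Tpi1 were among the genes farthest above it in KO16. Hk1, Pfkl, Pfkp, Pfkfb3 and Pdk4 were among those farthest above it in KO18 and KO19. The same counts and medians were not taken over all genes, so those given here are no result about the set. KO16 also deviated over all genes, by 0.95 log2 units on average in the shortest sixth and -0.90 in the longest.

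The make-up of enzyme families was compared as the share of a gene in its family's summed CPM per kilobase, which does not depend on the scaling between libraries. The share of Hk2 in the hexokinases Hk1 and Hk2 was 3.50%, 1.49%, 1.46% and 3.13% in the cKO kidneys KO16, KO18, KO19 and KO20, and 0.821% to 1.15% in Control kidneys. Pdk4 made up 29.3% ± 9.07 of the pyruvate dehydrogenase kinase transcripts in cKO kidneys and 10.6% ± 6.49 in Control kidneys (SD, n = 4 each), and Pfkp 15.4% ± 1.43 of the phosphofructokinase transcripts in cKO kidneys and 11.4% ± 1.57 in Control kidneys. In these 3 families the groups did not overlap. Among the other phosphofructokinases, not tested here, Pfkl held 34.3% to 42.2% in cKO kidneys and 24.5% to 29.5% in Control kidneys, and Pfkm 44.4% to 49.0% in cKO kidneys and 59.1% to 63.7% in Control kidneys. Of the other pyruvate dehydrogenase kinases, also not tested here, Pdk2 averaged 30.3% in cKO kidneys and 51.3% in Control kidneys. Pdk1 averaged 9.03% in cKO kidneys and 6.73% in Control kidneys, and Pdk3 31.3% in both. A higher Pdk4 share therefore came with a lower Pdk2 share. The exact two-sided permutation p was 0.0286 for each of the Hk2, Pdk4 and Pfkp shares, the smallest that 4 against 4 mice allow. It was 0.0571 after Benjamini-Hochberg adjustment over the 6 families compared, so none of the 3 passed. At that smallest p a family could not pass alone, so not passing says little here. Without division by length, the exact permutation p of the Pfkp share was 0.0857. The share of Ldhb in lactate dehydrogenase was 64.5% ± 8.46 in cKO kidneys and 75.9% ± 3.76 in Control kidneys, with KO19 at 72.9% inside the Control range (exact permutation p = 0.0571, adjusted 0.0857). The shares of Epas1 among the HIF alpha subunits and of P4ha2 in its pair overlapped between groups (adjusted p = 0.857 and 0.206 by the same exact test).

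**Figure D4:**
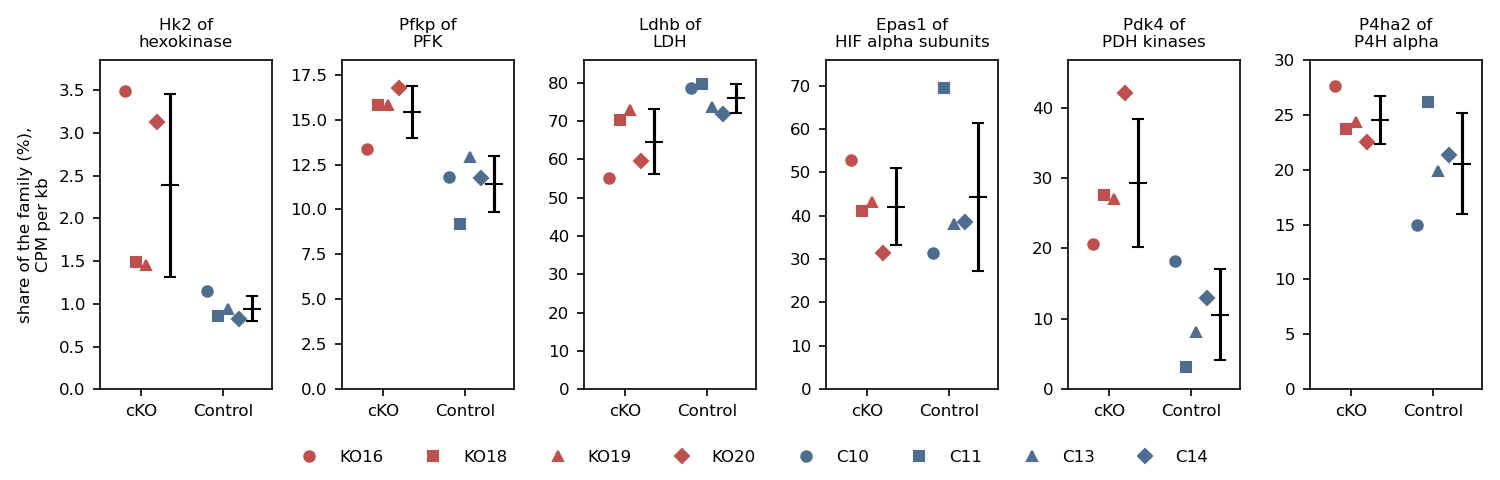
Share (%) of a gene in its family's summed CPM per kilobase in each mouse, cKO in red and Control in blue, with mean and SD (n = 4 each) in black. The shares of Hk2, Pfkp and Pdk4 are higher in every cKO mouse than in every Control mouse, and the Epas1 share of C11 (69.4%) lies far above all others.

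Levels between genes were compared per kilobase of exon, over all 8 libraries. Ldhb was the most abundant of the set at 638 CPM per kilobase, followed by Tpi1 (296), Ldha (288), Aldoa (262) and Ndrg1 (167). The order of Tpi1, Ldha and Aldoa is within their spread between mice. Ndrg1 averaged 87.8 CPM per kilobase in cKO kidneys and 247 in Control kidneys, where it stood above Ldha (222) and Aldoa (218). At the low end were Ankrd37 at 1.69, Hk2 at 0.121, Epo at 0.112 and Hif3a at 0.0952 CPM per kilobase, and the last 3 cannot be ordered at this depth. Of the genes that passed, Pkm was at 50.7 and Vegfa at 40.7 CPM per kilobase, and Ankrd37 and Hk2 were among the 4 lowest of the set. Gapdh, at 2.84 CPM per kilobase, and other genes with shared sequence have uncertain levels on this scale.

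The promoters of the 4 genes that passed are printed to show where the core of the HIF-binding element lies in each. The windows reach from 250 bases before to 50 bases after an annotated RefSeq start (GRCm38.p6), and 31 of the 33 genes had a window. The motif searched was ACGTG, or its reverse complement CACGT, and the looser GCGTG, or CACGC; both are in capitals, and where they overlap, as in the palindrome CACGTG, each strand is counted. The windows, written 5′ to 3′ on the gene's strand, were chr6:82774405-82774704 (minus) for Hk2, chr9:59656977-59657276 (plus, the downstream of 2 starts) for Pkm, chr8:45999801-46000100 (minus) for Ankrd37 and chr17:46032328-46032627 (minus, the upstream of 2 starts) for Vegfa.
Hk2: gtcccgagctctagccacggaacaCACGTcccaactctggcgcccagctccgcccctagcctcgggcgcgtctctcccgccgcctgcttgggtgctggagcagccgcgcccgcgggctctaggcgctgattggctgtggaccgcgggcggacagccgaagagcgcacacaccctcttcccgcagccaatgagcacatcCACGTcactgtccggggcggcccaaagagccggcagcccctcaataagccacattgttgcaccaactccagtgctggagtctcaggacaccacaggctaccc
Pkm: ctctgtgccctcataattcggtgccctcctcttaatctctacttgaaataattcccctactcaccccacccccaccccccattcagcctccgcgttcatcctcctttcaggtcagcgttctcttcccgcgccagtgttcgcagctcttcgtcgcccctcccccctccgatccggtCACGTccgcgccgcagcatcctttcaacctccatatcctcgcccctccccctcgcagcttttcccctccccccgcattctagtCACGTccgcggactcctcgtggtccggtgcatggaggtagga
Ankrd37: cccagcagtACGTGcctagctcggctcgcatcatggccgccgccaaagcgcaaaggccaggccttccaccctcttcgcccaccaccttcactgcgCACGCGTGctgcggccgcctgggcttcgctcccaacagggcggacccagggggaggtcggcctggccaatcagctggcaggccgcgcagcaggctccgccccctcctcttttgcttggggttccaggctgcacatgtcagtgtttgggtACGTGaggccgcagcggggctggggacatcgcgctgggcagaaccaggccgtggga
Vegfa: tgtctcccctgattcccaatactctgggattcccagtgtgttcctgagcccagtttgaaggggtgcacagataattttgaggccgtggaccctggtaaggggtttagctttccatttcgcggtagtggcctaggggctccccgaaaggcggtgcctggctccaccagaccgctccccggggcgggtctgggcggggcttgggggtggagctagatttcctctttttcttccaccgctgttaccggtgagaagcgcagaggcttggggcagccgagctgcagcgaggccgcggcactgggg
Matches began at -226 and -52 from the start in Hk2, at -75 and 8 in Pkm, and at -241, -155, -152 and -6 in Ankrd37, while the Vegfa window held neither motif. The upstream window of Pkm held none either, and the downstream window of Vegfa, at chr17:46025114-46025413, held 2, at -218 and -211. The 40 bases after the upstream Pkm start occur in 3 annotated Pkm transcripts, and those after the printed start in 1. For Pkm and Vegfa, whether a match is seen therefore depends on which of the 2 starts is printed. ACGTG on either strand occurred in at least 1 window of 19 of the 31 genes (61.3%), against 28.0% of the 11536 genes tested that had a window, and GCGTG in 74.2% against 53.1%. Of single windows, 22 of the 44 of these genes held ACGTG, against 24.1% of the windows of genes tested and 19.6% of all 32851 windows. The windows of the set were richer in G and C than those of all genes, with median contents of 62.8% in the set, 60.0% for genes tested and 52.7% for all windows, and the set's genes include textbook HIF targets chosen as such. A match is a run of letters and not a binding site, and a window without one says nothing of the factor.

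Outside the set, glycolysis and pyruvate genes and HIF-pathway genes from 2 further lists were counted in the same fit. Both lists were chosen with earlier results of these data known. Their shares of calls beside that of all genes are therefore no test of either list. Of 27 further genes of glycolysis and pyruvate handling tested, out of 31 listed, 2 were higher and 6 lower in cKO kidneys, or 29.6% called beside the 14.1% of all genes, with a median log2 fold change of 0.06. Slc16a3, the lactate exporter of glycolytic cells, and Eno2, the neuronal enolase, were higher (1.20 and 1.64; adjusted p = 0.0261 and 0.0294). Ldhd, which oxidises the D form of lactate in mitochondria, averaged 398 ± 136 CPM in cKO kidneys and 1508 ± 174 CPM in Control kidneys (-1.92, adjusted p = 0.0029). Pdp2, the phosphatase that reactivates pyruvate dehydrogenase, was lower (-2.16, adjusted p = 0.0046), as were the dehydrogenase subunit Pdha1 (-0.79, 0.0215) and Slc2a2, the basolateral glucose transporter of the proximal tubule (-1.44, 0.0297). Pdk3 (-0.72) and Slc16a1 (-1.16), named after their values were seen, were the other 2 that fell. The 3 that came closest without passing were Pdk2 (-1.52), Aldoc (0.84) and Dlat (-0.55). The higher count of 2 became 0 without C10, C13, C14 or KO20, and the lower count of 6 became 2 without C10, C13, C14, KO19 or KO20.

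Of 46 further HIF-pathway genes, all tested, 5 were higher and 6 lower, or 23.9% called beside the 14.1% of all genes, with a median log2 fold change of 0.06. Car9, a surface carbonic anhydrase widely read as a marker of hypoxia, was at 2.28 to 4.47 CPM in cKO kidneys and 10.1 to 22.8 CPM in Control kidneys (-2.11, adjusted p = 0.0035). Also lower were Ak4, a mitochondrial adenylate kinase (-2.75, adjusted p = 0.0047), Sap30, a subunit of a histone deacetylase complex (-1.70, 0.0011), and Car12, another carbonic anhydrase (-1.87, 0.0095). Edn1, the vasoconstrictor endothelin, averaged 6.40 ± 1.84 CPM in cKO kidneys and 1.35 ± 0.621 CPM in Control kidneys (2.24, adjusted p = 0.0048). Of the others that passed, Stc2 (1.35), Lox (1.97) and Angptl4 (0.89) rose, and Tfrc (-1.65) and Bhlhe40 (-1.38) fell; these 5 were named after their values were seen. The closest without passing were Hilpda (1.67), Kdr (-0.98) and Cxcr4 (1.07). The higher count of 5 became 2 without C13 and 3 without C14.

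The cellular make-up of the samples differed along with these genes, and in bulk tissue fewer cells of a type and less RNA per cell cannot be told apart. Of 15 proximal tubule markers 12 were lower and 0 higher in cKO kidneys, with a summed level of 21321 to 61763 CPM in cKO kidneys and 57797 to 115411 CPM in Control kidneys. The groups overlapped there through KO16 and C11, and the markers were abundant in all samples. Of 8 macrophage markers 6 were higher, at 999 (KO16), 724 (KO20), 305 (KO19) and 278 (KO18) CPM in cKO kidneys and 126 to 142 CPM in Control kidneys. Of 8 interstitial markers 2 were higher, with sums of 482 to 577 CPM in cKO kidneys and 330 to 357 CPM in Control kidneys. None of 8 endothelial markers passed, with sums of 369 to 379 CPM in cKO kidneys and 397 to 533 CPM in Control kidneys. Podocyte markers summed to 83.1 to 185 CPM in cKO kidneys, with 0 of 5 called. In Control kidneys their sum was 370 CPM in C11 and 142 to 171 CPM in the others. KO16, which had the highest Pkm and Ldha, also had the highest sum of the 5 erythroid markers, 703 CPM, against 101 to 215 CPM in the other cKO kidneys and 192 to 300 CPM in Control kidneys. Of that sum in KO16, 534 CPM were Hbb-bs, which has 0.768 kilobases of exon. Over all genes, those in the shortest sixth averaged 0.95 log2 units above the Control mean in KO16. The part of length in this sum was not tested. No marker was at 0 in all libraries. The part of these cell types in the changes of the set was not tested.

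**Figure D5:**
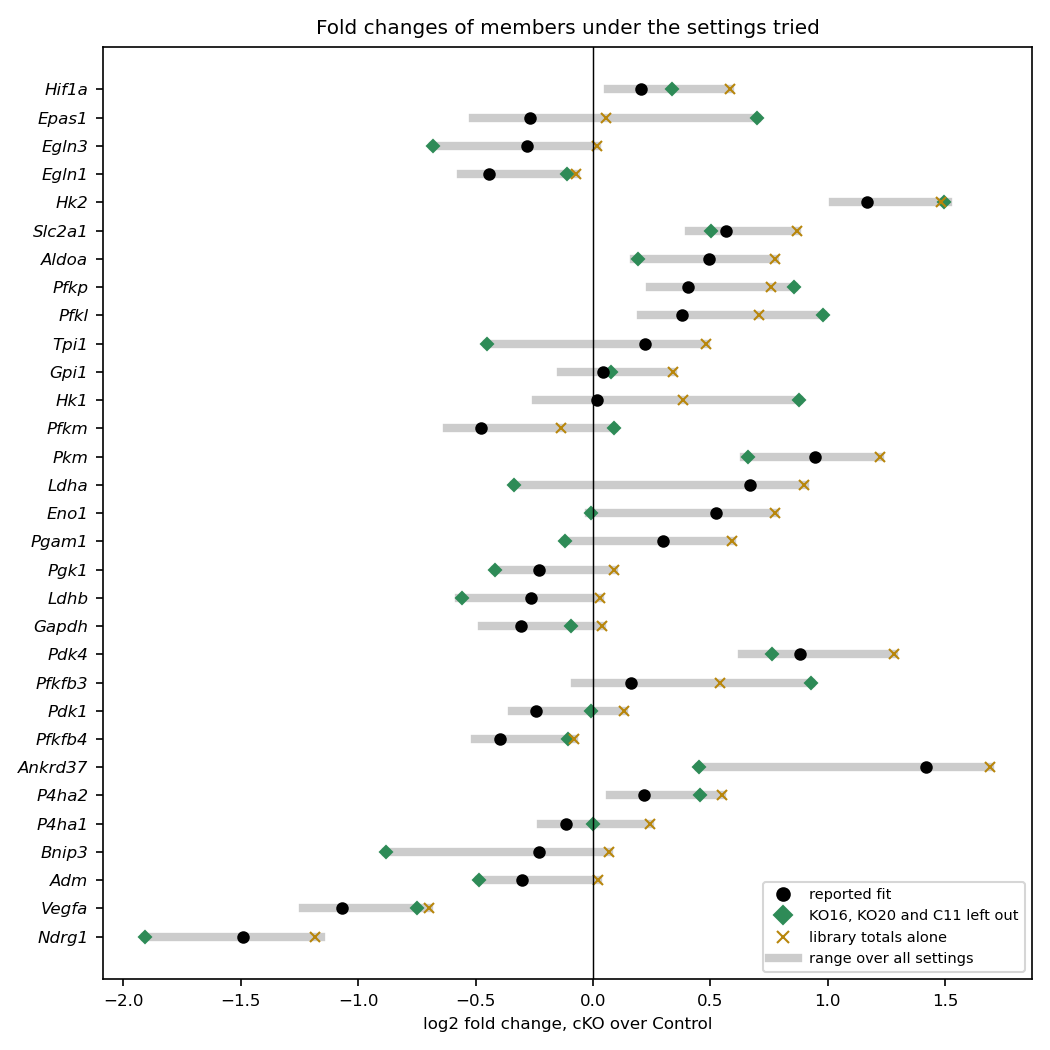
Log2 fold change of cKO over Control for each of the 31 genes in the reported fit (black), with KO16, KO20 and C11 left out (green) and with library totals as the sole scaling (gold), over a grey bar for the range of all settings tried. Vegfa, Ndrg1, Egln1 and Pfkfb4 stay below 0 in all of them. Hk2, Pkm, Ankrd37, Slc2a1, Pdk4, Aldoa, Hif1a, P4ha2, Pfkl and Pfkp stay above 0, whereas Tpi1, Ldha, Epas1 and Hk1 are among those that cross it.

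With KO16, KO20 and C11 left out, 12 of the 32 genes tested were higher and 8 lower in cKO kidneys, where 29.5% and 28.2% of all 15881 genes tested then passed. This leaves 2 cKO and 3 Control mice, and the libraries were chosen for their length dependence and principal component scores, which come from the same data. In the mice kept, the slope of log2 CPM on log2 exonic length was 0.744 (KO18) and 0.684 (KO19) in cKO kidneys. In Control kidneys it was 0.426 (C10), 0.548 (C13) and 0.531 (C14). Length dependence and genotype therefore cannot be told apart in this fit, and the part of length in its calls was not tested. The genes then called higher were Hif1a, Epas1, Hif3a, Slc2a1 (0.50), Hk1, Hk2, Pfkl, Pfkp, Pkm, Pfkfb3, Pdk4 (0.76) and P4ha2 (0.45). Those called lower were Egln3 (-0.68), Tpi1, Pgk1 (-0.42), Ldha, Ldhb (-0.56), Bnip3, Ndrg1 and Vegfa. Egln1 was then at -0.11 and Aldoa at 0.19, and neither passed. Of the 4 genes called with all 8 libraries, Hk2 (1.49), Pkm (0.66) and Vegfa (-0.75) were in these lists, and Ankrd37 was not.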

How the data were processed

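Whole-kidney RNA of 4 cKO and 4 Control mice was sequenced from stranded mRNA libraries, per the labels' protocols. The authors deposited unnormalised read counts for each Ensembl gene, as the whole numbers in the files and the closing lines of the counting tool show. Per the submitters' processing notes, cutadapt 1.3, STAR 2.4.0g, HTSeq 0.6.1 and build GRCm38 were used; the sources used here name neither the annotation release nor the strand setting. Lines that name no gene (39.7% to 56.2% of each file's total) entered neither library sizes nor tests. GENCODE vM21 supplied symbols, coordinates and exon lengths and matched 46005 of the 46517 identifiers, and RefSeq supplied promoter windows.

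The reported test is edgeR 4.0.16 in R 4.3.3: TMM factors, filterByExpr (minimum count 10, minimum total 15), quasi-likelihood F test without covariates on all 8 libraries, and Benjamini-Hochberg adjustment over the 15382 genes tested at a threshold of 0.05. Every adjusted p is from this test unless another is named. CPM are TMM-scaled. The fit was tested on simulated data before use. The common biological coefficient of variation was 0.386, and the spread between mice set the precision of all but the lowest genes, such as Hk2, where counting error adds to it. Replicates are libraries of separately named mice, and no pair was alike within sampling noise (chi-square per degree of freedom 7.48 to 476 within groups).

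The 33 genes, the further lists and the tests were chosen with earlier results of these data known. Genes named were Xpr1, all 33 members, and from each further list up to 6 that passed with the smallest p and up to 3 that did not; 7 more that passed were named after their values were seen, and 1 gene is counted but not reported here. Alternatives were library totals, upper-quartile and RLE factors, DESeq2 1.42.0, limma-voom (limma 3.58.1), other filters, each library left out, KO16 with KO20 left out, these with C11, a transcript-length covariate and 1 surrogate variable (sva 3.50.0). Family shares were compared with a two-sided exact permutation test over 70 assignments. The labels give no shared replicate number, batch or litter.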

Additional observations from a re-analysis of the deposited data

Results flagged for a closer look

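Among 66 groups of 4 mice examined, 10 held a highest value set apart from the other 3 beyond the 95% critical value of Dixon's test. Chance flags about 1 in 20 groups. All 10 were C11 among the Control mice or KO16 among the cKO mice, 5 each.

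KO16 was far above the other cKO mice for Aldoa (1394 CPM, the others 690 to 747), Tpi1 (1567 CPM, the others 592 to 758), Pgam1 (46.2 CPM, the others 23.5 to 25.0), Pkm (509 CPM, the others 263 to 283) and Ldha (2460 CPM, the others 647 to 925). These enzymes act from the aldolase step to lactate, as do Gapdh, Pgk1, Eno1 and Ldhb, which were not flagged. Among the cKO mice, KO16 was also highest for Pgk1, Eno1 and Ldhb, and lowest for Gapdh. Over all genes, those in the shortest sixth averaged 0.95 log2 units above the Control mean in KO16. The part of length in these values was not tested. C11 was far above the other Control mice for Epas1 (180 CPM, the others 40.4 to 57.8), Gpi1 (402 CPM, the others 279 to 284), Pfkm (61.3 CPM, the others 29.2 to 33.6), Pkm (192 CPM, the others 167 to 168) and Pfkfb4 (14.2 CPM, the others 7.57 to 8.21).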

How the results depend on the processing

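Vegfa, Ndrg1, Hk2, Pkm, Ankrd37, Slc2a1 and Pdk4 kept their sign in all 19 alternatives, or 18 for Hk2, which a mean of at least 1 CPM removes. So did Aldoa, Egln1, Hif1a, P4ha2, Pfkfb4, Pfkl and Pfkp, none of which passed in the reported fit. Pkm and Vegfa each passed in 12 of the 19, Hk2 in 9, Ndrg1 in 9, Ankrd37 in 8 and Slc2a1 in 5. In the reported fit 3 of the 33 genes were higher and 1 lower in cKO kidneys. The higher count was 1 with RLE factors (Hk2), 5 with library totals alone, 0 with no filter, 1 without KO16 and KO20, 12 without KO16, KO20 and C11, 6 with the length covariate and 5 with 1 surrogate variable. The lower count was 0 with library totals alone, 2 with DESeq2, limma-voom, no filter, or KO16 and KO20 left out, 8 without KO16, KO20 and C11, and 5 with the length covariate or 1 surrogate variable. Leaving out 1 library at a time gave 0 to 2 higher and 0 to 3 lower. Over all genes, the 2170 calls became 3267 with DESeq2, 9175 without KO16, KO20 and C11, 5111 with the length covariate, 5431 with 1 surrogate variable, and 1106 (without C13) to 2697 (without KO16) with 1 library left out. Causes were not tested.

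In the further glycolysis list, the higher count of 2 was 4 with library totals, 1 with no filter, 0 without KO16 and KO20, 8 without KO16, KO20 and C11, and 0 to 4 with 1 library left out. Its lower count of 6 was 3 with upper-quartile factors, 2 with library totals, 15 without KO16, KO20 and C11, and 2 to 6 with 1 library left out. In the further HIF list, the higher count of 5 was 8 with library totals, 13 without KO16, KO20 and C11, 9 with the length covariate, 10 with 1 surrogate variable, and 2 (without C13) to 6 (without KO19) with 1 library left out. Its lower count of 6 was 17 without KO16, KO20 and C11, and 11 with the length covariate or 1 surrogate variable.

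Several genes changed sign on the log2 scale, and not all of them were near 0 in the reported fit. Ldha (0.67), Eno1 (0.52) and Pfkm (-0.48) were among those that did. Upper-quartile factors and library totals raised the median of all genes by 0.13 and 0.34. Upper-quartile factors turned P4ha1 to 0.013. Library totals turned Epas1 to 0.055, Egln3 to 0.016, Gapdh to 0.038, Pgk1 to 0.089, Ldhb to 0.030, Pdk1 to 0.13, Adm to 0.023, Bnip3 to 0.066 and P4ha1 to 0.24, all below that median, which 16 of the 31 genes exceeded. DESeq2 turned Hk1 to -0.010, and no filter turned Hk1 to -0.020 and Gpi1 to -2.2e-05. Without KO16 and KO20, Epas1 was 0.039, Gpi1 -0.036, Tpi1 -0.35, Pgam1 -0.0067, Eno1 -0.018, Ldha -0.19, Pdk1 0.013 and P4ha1 0.079. Without KO16, KO20 and C11, Epas1 was 0.70, Pfkm 0.089, Tpi1 -0.45, Pgam1 -0.12, Eno1 -0.0095, Ldha -0.33 and P4ha1 0.0017. The length covariate turned Epas1 to 0.15 and Tpi1 to -0.11, and 1 surrogate variable turned them to 0.12 and -0.019. With 1 library left out, Hk1 ran from -0.24 to 0.43, Gpi1 from -0.14 to 0.25, Epas1 from -0.51 to 0.42, Tpi1 from -0.21 to 0.41, Pfkfb3 from -0.077 to 0.46 and P4ha1 from -0.22 to 0.032. The difference in the Epas1 family share, -2.23 percentage points, was 6.16 without KO16, KO20 and C11 and ran from -6.55 to 6.11 with 1 library left out. No paired analysis was possible because the labels number each mouse once, and replicate numbers given in listing order pair nothing. Hk2, Epo and Hif3a are limited by depth, with 148, 20 and 143 reads in all.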

Other observations

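Markers of the remaining cell types were summed in the same way. The thick limb markers were at 3397 to 5247 CPM in cKO kidneys and 3461 to 4166 CPM in Control kidneys, the distal convoluted tubule markers at 686 to 787 CPM in cKO kidneys and 672 to 1057 CPM in Control kidneys, and the collecting duct markers at 437 to 645 CPM in cKO kidneys and 378 to 460 CPM in Control kidneys, with 1 of 8 collecting duct markers higher and 1 lower. Adipocyte markers were at 596 (KO16), 458 (KO20), 134 (KO19) and 68.9 (KO18) CPM in cKO kidneys, against 44.1 to 180 CPM in Control kidneys, so the groups overlapped, with 0 called. Skeletal muscle markers summed to 2.56 to 10.5 CPM in cKO kidneys and 1.06 to 1.48 CPM in Control kidneys. Of these, Acta1 was at 1.86 to 8.22 CPM in cKO kidneys and 0 to 0.521 CPM in Control kidneys, and the other 4 overlapped between groups.

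The summed level of the 33 genes was 10091 CPM in KO16 and 5072 to 5144 CPM in the other 3 cKO kidneys, against 5871 to 7240 CPM in Control kidneys.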
